A study of Rattus norvegicus with 12 samples.

Results

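The superoxide dismutases Sod1, Sod2 and Sod3, the catalase Cat, the glutathione peroxidases Gpx1, Gpx3 and Gpx4 and the peroxiredoxins Prdx1, Prdx3 and Prdx5 were followed in the kidney cortex of rats with mutated or wild-type Xdh. Xdh encodes xanthine dehydrogenase, which makes uric acid and, in its oxidase form, releases superoxide and hydrogen peroxide. The 10 genes were taken by symbol from a count table of 32623 genes, and each symbol stood on 1 row. The rule that picks them uses their names and no measured value, but the list of names was chosen with earlier results of these data known. RNA sequencing covered 12 libraries from male littermates aged 6 weeks, labelled with the strain SS-Xdhem1Mcwi in all groups: 4 with both Xdh alleles mutated (HOMO, replicates 1 to 4), 4 with 1 mutated allele (HET, replicates 1, 2, 4 and 5) and 4 wild-type (WT, replicates 1 to 4). No treatment is given in the labels, and all groups come from the line of 1 engineered Xdh allele. Whether the libraries of a group stem from separate animals is not stated in the labels. The p-values therefore set a difference against the spread between these libraries, whatever its source. That spread was estimated from all groups together. Within a group, pairs of libraries differed by more than counting noise, with a mean chi-square per gene of 19.6 to 94.2.

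Superoxide dismutases turn superoxide into hydrogen peroxide, and catalase, glutathione peroxidases and peroxiredoxins then reduce the peroxide to water. The enzymes divide the cell between them: Sod1 and Prdx1 work mainly in the cytosol, Sod2 and Prdx3 in mitochondria, Cat in peroxisomes, and Sod3 and Gpx3 outside the cell. The proximal tubule, rich in mitochondria and peroxisomes, holds much of the kidney's share of these enzymes, and it is the main source of the Gpx3 protein found in plasma.

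Total counts ran from 22858907 to 36998378 in HOMO libraries, from 18995464 to 37023629 in HET libraries and from 28481944 to 36119168 in WT libraries. Levels are in CPM, read counts set to a common library total, scaled by TMM, a correction that sets the bulk of genes level between libraries. This correction was large here, with factors of 1.292 to 1.351 in HOMO libraries, 0.8446 to 0.876 in HET libraries and 0.83 to 0.9081 in WT libraries. With library size alone, the median log2 fold change of all 15856 tested genes was 0.65 for HOMO against WT, and with TMM it was 0.04, so every change below is relative to that bulk. Xdh itself was at 61.7, 60.7, 230 and 57.6 CPM in HOMO replicates 1 to 4, against 140 to 197 CPM in HET libraries and 281, 380, 212 and 270 CPM in WT replicates 1 to 4. The library labelled HOMO replicate 3 thus had Xdh above every HET library and within the range of the WT libraries. All 10 genes nevertheless lay below every WT library in it. The marker lists for the labelled tissue were well covered: 12 proximal tubule markers summed to 25998 to 31127 CPM in WT libraries.

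All 10 genes fell in HOMO against WT on the TMM scale, and none of their HOMO libraries overlapped any WT library, while with library size alone 6 fell, Sod2 rose and Gpx4, Prdx1 and Prdx5 did not pass the test. Of the 15856 tested genes, 71.7% were called, with 34.7% lower and 37% higher, and 32.2% lay lower without overlap (edgeR quasi-likelihood test, Benjamini-Hochberg adjusted p of at most 0.05). With library size alone 64.9% of tested genes were called higher and 16.2% lower, so that a rise was the common outcome there. The sizes ran over a wide range. Relative to the WT mean, the HOMO mean was lowest for Gpx3, at 10.2%, with Cat next, and highest for Sod2, at 78.8%. The median log2 fold change of the 10 genes was -1.36, and 6 of them fell by more than 2-fold, where 15.1% of all tested genes did. Without the library labelled HOMO replicate 3 all 10 were still called lower, with a median of -1.31. In a homogenate of cortex, fewer cells of a type and less RNA per cell cannot be told apart.

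**Figure D1:**
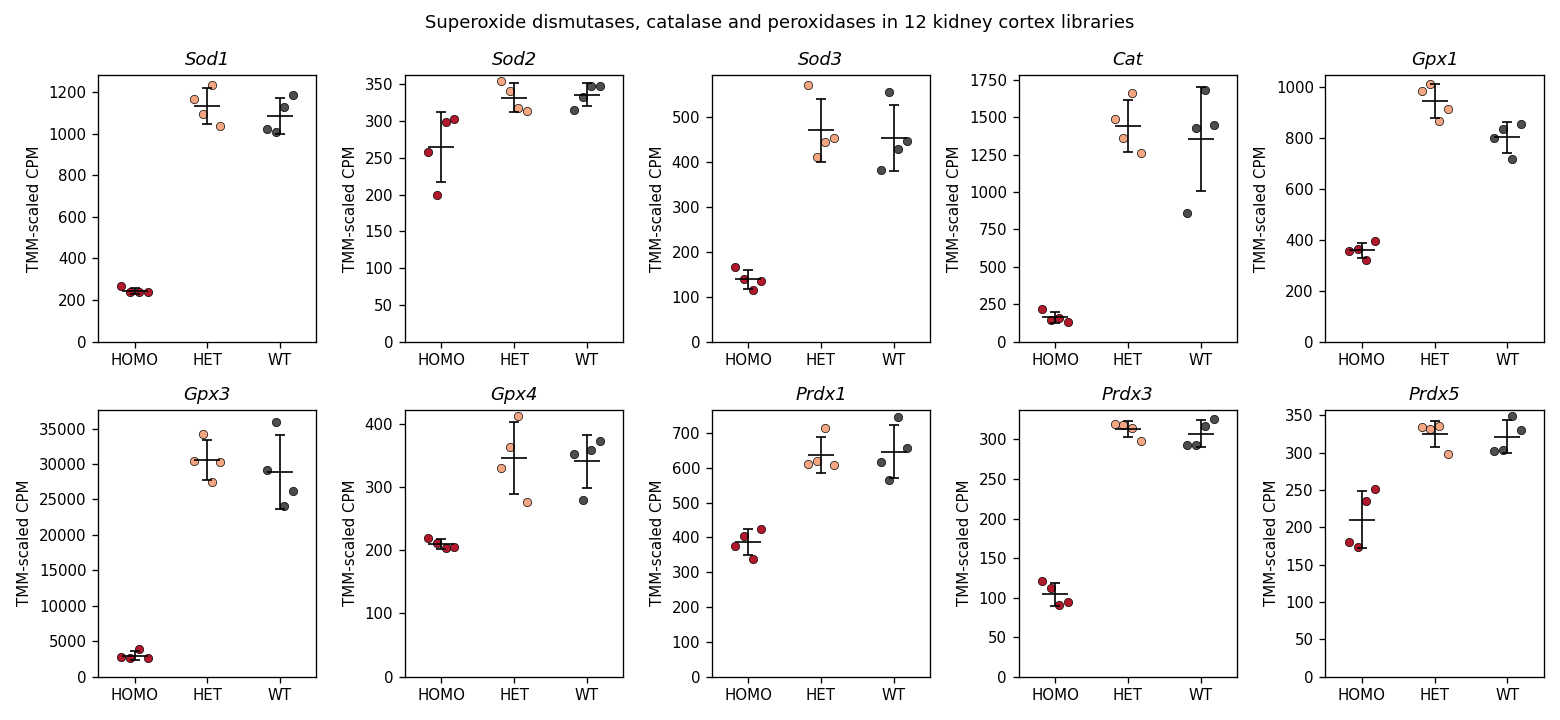
TMM-scaled CPM (y axis, starting at 0) of the 10 genes in the 12 kidney cortex libraries by genotype (x axis), 1 point per library, with the mean and SD of 4 libraries as bars. In each panel every HOMO point lies below every WT point on this scale, from the wide gap of Gpx3 (2575 to 3842 against 24109 to 35994 CPM) to the narrow gap of Sod2 (200 to 303 against 315 to 348 CPM), which turned to the other direction with library size alone.

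Among the superoxide dismutases, the cytosolic copper-zinc enzyme Sod1 (ENSRNOG00000002115, chromosome 11 of Rnor_6.0 from position 30363280) stood at 267, 238, 241 and 237 CPM in HOMO replicates 1 to 4, against 1021, 1005, 1128 and 1185 CPM in WT replicates 1 to 4. The HOMO libraries lay close together and the nearest WT library was far above them. The mean of 246 ± 14.1 CPM in HOMO, against 1085 ± 86.2 CPM in WT (SD, n = 4 each), made Sod1 4.42-fold lower (log2 fold change -2.14 ± 0.09 SE, adjusted p = 5.02e-10 by edgeR). Sod3, the enzyme bound to the matrix outside the cell (ENSRNOG00000003869, chromosome 14 from position 60958592), had 166, 140, 115 and 134 CPM in HOMO libraries, against 381, 555, 427 and 445 CPM in WT libraries. It was 3.26-fold lower, with a log2 fold change of -1.70 ± 0.14 (adjusted p = 2.62e-07). Its WT libraries were spread more widely than those of Sod1, with a coefficient of variation of 16.3% against 7.95%.

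Sod2, the manganese enzyme of the mitochondrial matrix (ENSRNOG00000019048, chromosome 1 from position 47914759), moved least on the TMM scale, while with library size alone Prdx5, Gpx4 and Prdx1 lay nearer to 0. It had 258, 200, 298 and 303 CPM in HOMO replicates 1 to 4, against 315, 332, 348 and 348 CPM in WT replicates 1 to 4. The groups did not overlap, and HOMO replicates 3 and 4 came close to the lowest WT library. The log2 fold change was -0.34 ± 0.11 (adjusted p = 0.0156) on the TMM scale and 0.27 (adjusted p = 0.0368) with library size alone, so its direction depended on the scaling. The authors' deposited table gave -0.34 with a false discovery rate of 0.056, which does not pass a level of 0.05. Prdx3, the peroxiredoxin of the same compartment, was 2.94-fold lower, so the ratio of Sod2 to Prdx3 per length was 1.88 ± 0.556 in HOMO libraries and 0.786 ± 0.0209 in WT libraries (SD, n = 4 each). Such a ratio within a library does not depend on the scaling, and its lowest HOMO value, 1.28, lay above its highest WT value, 0.814.

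Catalase, the heme enzyme that clears peroxide in peroxisomes (Cat, ENSRNOG00000008364, chromosome 3 from position 93379874), was at 218, 143, 160 and 129 CPM in HOMO replicates 1 to 4. In WT replicates 1 to 4 it was at 863, 1431, 1684 and 1445 CPM. WT replicate 1 stood well below the other WT libraries, and still at several times the highest HOMO library. Cat was 8.34-fold lower in HOMO (log2 fold change -3.06 ± 0.22, adjusted p = 6.11e-08), and -2.44 with library size alone. HOMO replicate 1 had the highest Cat, Sod3, Sod1, Gpx4 and Prdx3 of its group, and it also carried the most RNA of 4 fat cell markers (Adipoq, Plin1, Cidec and Lep, chosen after the data were seen). These summed to 551 CPM there and to 10.3 to 21.1 CPM in the other HOMO libraries. In HET replicate 1, which had the highest Sod3 (570 CPM), Sod2 and Prdx3 of its group but not the highest Cat (1486 CPM, against 1661 CPM in HET replicate 4), they summed to 159 CPM, with 8.4 to 32.9 CPM in the other HET libraries and 7.53 to 40.0 CPM in WT libraries. The part of fat in these values was not tested. Without HOMO replicate 1 the log2 fold change was -3.23 for Cat and -1.80 for Sod3.

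Of the glutathione peroxidases, which use glutathione and, in these 3 members, carry selenocysteine, the secreted Gpx3 (ENSRNOG00000052564, chromosome 10 from position 40247436) was the most abundant and fell furthest. It was at 2687, 2575, 3842 and 2619 CPM in HOMO replicates 1 to 4, against 29086, 35994, 24109 and 26184 CPM in WT replicates 1 to 4. The library labelled HOMO replicate 3 was the highest of its group, far below all WT libraries. Gpx3 was 9.84-fold lower, with a log2 fold change of -3.30 ± 0.17 (adjusted p = 3.88e-09), or -3.46 without that library. Its share of all counts was 0.391 ± 0.0859% in HOMO libraries and 2.5 ± 0.395% in WT libraries (SD, n = 4 each). By level per length it took place 16 among all tested genes in HOMO and place 6 in WT.

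Gpx1, the common cytosolic and mitochondrial form (ENSRNOG00000048812, chromosome 8 from position 117117430), had 354, 364, 322 and 393 CPM in HOMO replicates 1 to 4, against 800, 833, 716 and 854 CPM in WT replicates 1 to 4. Both groups were narrow, and Gpx1 was 2.24-fold lower in HOMO (log2 fold change -1.16 ± 0.09, adjusted p = 1.11e-07). Gpx4, which reduces lipid peroxides in membranes and holds back ferroptosis (ENSRNOG00000013604, chromosome 7 from position 12516352), ran from 203 to 220 CPM in HOMO libraries and from 279 to 372 CPM in WT libraries. It was 1.62-fold lower (log2 fold change -0.70 ± 0.12, adjusted p = 0.000145), but at -0.09 (adjusted p = 0.525) with library size alone it did not pass the test.

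The peroxiredoxins, thiol peroxidases recycled mostly by thioredoxin, moved by unequal amounts. Prdx3, the mitochondrial form (ENSRNOG00000010958, chromosome 1 from position 282238773), had 121, 112, 90.1 and 93.8 CPM in HOMO replicates 1 to 4, against 293, 293, 317 and 326 CPM in WT replicates 1 to 4. The WT libraries differed by little, with a coefficient of variation of 5.47%, and all HOMO libraries lay far below them. Its log2 fold change was -1.56 ± 0.09 (adjusted p = 1.31e-08), and -0.94 with library size alone. Prdx1, the cytosolic form (ENSRNOG00000017194, chromosome 5 from position 135536413), averaged 386 ± 37.1 CPM in HOMO and 647 ± 76.9 CPM in WT (SD, n = 4 each), a log2 fold change of -0.75 ± 0.10 (adjusted p = 2.44e-05). Prdx5, found in mitochondria, peroxisomes and cytosol (ENSRNOG00000021125, chromosome 1 from position 222164462), averaged 210 ± 38.8 CPM in HOMO and 322 ± 22.2 CPM in WT, a log2 fold change of -0.61 ± 0.11 (adjusted p = 0.00033). With library size alone Prdx1 was at -0.14 (adjusted p = 0.243) and Prdx5 at -0.0029 (adjusted p = 0.982), and neither passed the test. The ratio of Prdx1 to Prdx3 per length, which the scaling does not touch, was 6.24 ± 0.984 in HOMO libraries and 3.51 ± 0.309 in WT libraries (SD, n = 4 each).

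**Figure D2:**
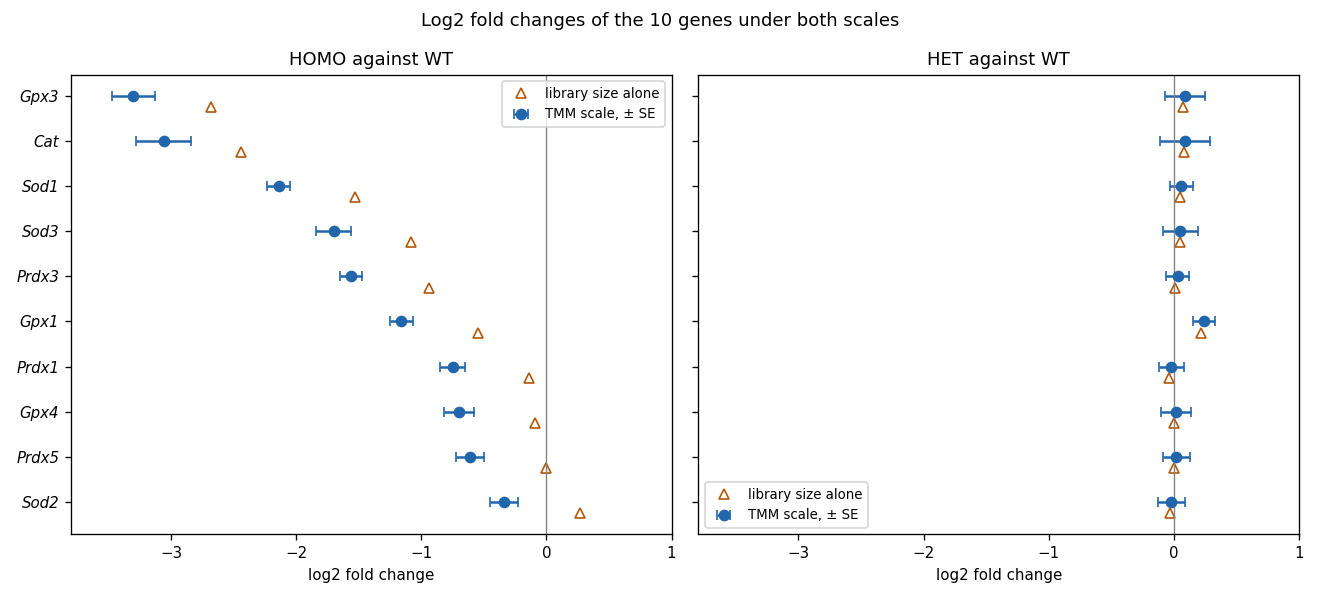
Log2 fold changes (x axis) of the 10 genes (y axis, ordered by size) for HOMO against WT and for HET against WT. Filled points show the TMM scale with SE and open triangles library size alone. For HOMO against WT, Gpx3 (-3.30) and Cat (-3.06) lie furthest left. Sod2 is nearest to 0 with TMM, at -0.34, and lies at 0.27 with library size alone, where Prdx5 is nearest to 0, at -0.0029. For HET against WT the TMM values lie between -0.02 and 0.24.

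The order of the enzymes by level per length also differed between the groups. Gpx3 led in HOMO libraries (1996 ± 415 CPM per kilobase) and in WT libraries (19648 ± 3533). In HOMO the next after Gpx3 were Prdx1 (434 ± 41.7), Gpx1 (410 ± 33.7) and Sod1 (374 ± 21.5), whose neighbouring ranges overlapped, and Cat was the last of the 10 at 64.0 ± 15.3, overlapping Prdx3 at 70.4. In WT, Gpx3 was followed by Sod1 (1654 ± 131), Gpx1 (917 ± 69.3), Prdx1 (728 ± 86.5), Cat (534 ± 137), Prdx5 (394 ± 27.2), Sod3 (262 ± 42.7), Prdx3 (207 ± 11.3), Gpx4 (193 ± 23.8) and Sod2 (163 ± 7.61). The ranges of neighbours overlapped in WT from Gpx1 to Prdx5 and from Prdx3 to Sod2. Sod2 and Gpx4 were next to each other with overlapping ranges in HOMO libraries, as in WT libraries.

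**Figure D3:**
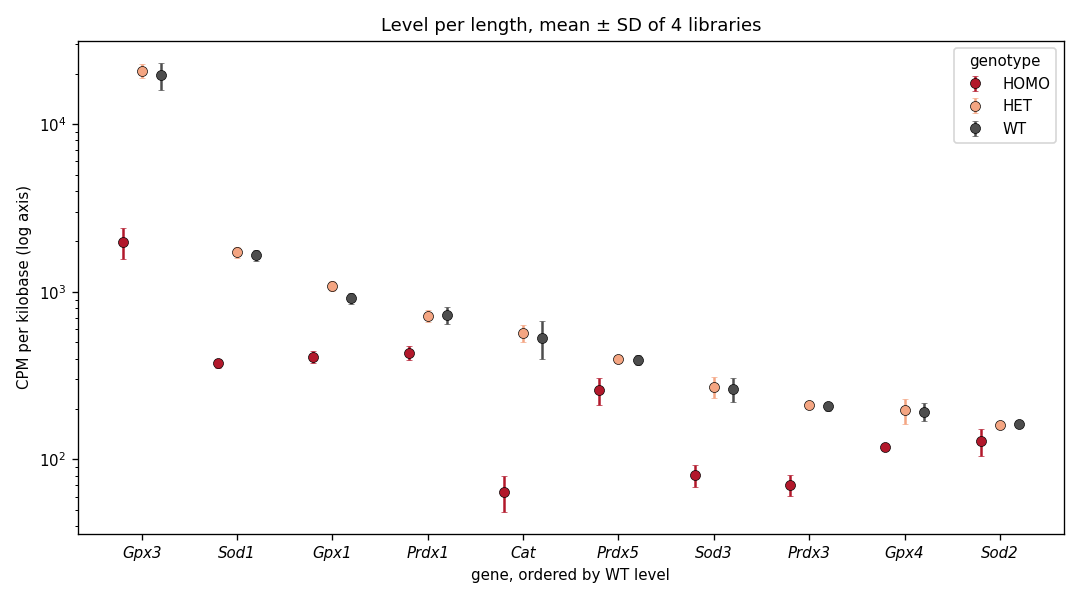
Mean level per length in CPM per kilobase (log axis) with SD over 4 libraries, for HOMO, HET and WT, with the 10 genes ordered by their WT level. Cat has the lowest level in HOMO, at 64.0, and the fifth place in WT, at 534, while Sod2 lies at 128 in HOMO and 163 in WT.

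Proportions between genes within a library do not depend on the scaling, but a share of all counts is on the scale of library size alone. The 10 genes took 0.667 ± 0.0824% of all counts in HOMO libraries, 3.15 ± 0.186% in HET libraries and 3.0 ± 0.358% in WT libraries (SD, n = 4 each). On the TMM scale they summed to 5010 ± 570 CPM in HOMO libraries, 36545 ± 2695 CPM in HET libraries and 34489 ± 4989 CPM in WT libraries. Most of the HET and WT sums was Gpx3. Without it the sums were 2080 ± 100 CPM in HOMO libraries, 5940 ± 372 CPM in HET libraries and 5645 ± 509 CPM in WT libraries. Gpx3 alone made up 50.4 ± 5.48% of the summed level per length of the 10 genes in HOMO libraries, 79.6 ± 2.06% in HET libraries and 79.2 ± 3.61% in WT libraries. Among the 3 superoxide dismutases the Sod2 share was 22.0 ± 3.64% in HOMO libraries, 7.47 ± 0.53% in HET libraries and 7.84 ± 0.198% in WT libraries. The Sod3 share was 13.8 ± 1.75% in HOMO libraries and 12.6 ± 2.2% in WT libraries, a difference smaller than the spread. Cat relative to Gpx1 stood at 0.158 ± 0.0434 in HOMO libraries and 0.588 ± 0.178 in WT libraries. No test was added for these ratios, and the ratios of Sod2 to Sod1, Sod2 to Prdx3 and Prdx1 to Prdx3 were higher in every HOMO library than in any WT library.

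**Figure D4:**
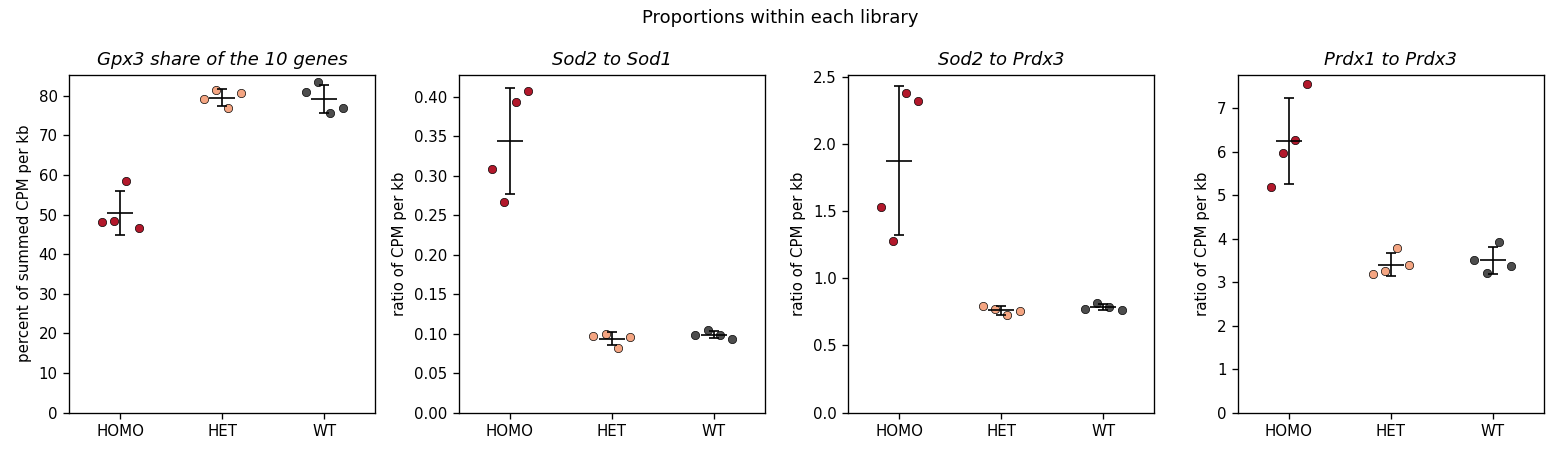
Proportions per library by genotype (x axis): the Gpx3 percentage of the summed CPM per kilobase of the 10 genes, and the ratios of Sod2 to Sod1, Sod2 to Prdx3 and Prdx1 to Prdx3 per kilobase, with mean and SD of 4 libraries. HOMO points lie apart from HET and WT points in every panel, at 46.5 to 58.5% against 75.6 to 83.4% in WT for the Gpx3 share.

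In heterozygous cortex no difference from WT passed the test, not even that of the mutated gene. Xdh was at 140 to 197 CPM in HET libraries and 212 to 380 CPM in WT libraries. Its log2 fold change was -0.75 ± 0.43 (unadjusted p = 0.108 by edgeR). The lack of a call therefore does not show equal levels. None of the 10 genes was called for HET against WT, and 0 of the 15856 tested genes (0%) were called by edgeR, DESeq2 or limma voom, with 318 (2.01%) at an unadjusted p of at most 0.05 in edgeR. The log2 fold changes of the members lay between -0.02 and 0.24. The largest was that of Gpx1, at 983, 1012, 866 and 913 CPM in HET replicates 1, 2, 4 and 5, against 800, 833, 716 and 854 CPM in WT replicates 1 to 4. Every HET library of Gpx1 was above every WT library, which held in this direction for 0.877% of all tested genes. Its log2 fold change was 0.24 ± 0.09, with an unadjusted p of 0.0193 and an adjusted p of 1 by edgeR, and a 95% interval of 0.04 to 0.44. The intervals bound what may have been missed: -0.13 to 0.25 for Sod1, -0.27 to 0.24 for Sod2, -0.28 to 0.45 for Gpx3 and -0.36 to 0.54 for Cat. The HET mean lay beyond the WT mean, away from HOMO, for 8 of the 10 genes, and between both for Sod2 and Prdx1. The share of all tested genes placed this way was not counted. Except for Gpx1, each of these log2 fold changes was smaller than its own SE, so the placement carries little weight. Those of Sod3, Cat, Gpx4 and Prdx5 changed sign when certain single libraries were left out. Apart from Gpx1, the HET and WT libraries of each gene overlapped.

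Set against HET libraries, with the same HOMO libraries in both comparisons, the 10 genes were again all called lower on the TMM scale, where 70.6% of tested genes were called, 34.5% lower and 36.2% higher, and with library size alone 6 were and Sod2 was higher, where 65.5% of tested genes were called higher and 15.9% lower. The log2 fold changes were -3.38 for Gpx3, -3.15 for Cat, -2.20 for Sod1, -1.76 for Sod3, -1.58 for Prdx3, -1.40 for Gpx1, -0.73 for Prdx1, -0.72 for Gpx4, -0.63 for Prdx5 and -0.32 for Sod2. The call of Sod2 (adjusted p = 0.0209 by edgeR) was lost without HET replicate 1, at -0.30 (adjusted p = 0.0528), and the authors' deposited table gave it a false discovery rate of 0.0937.

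The HET and WT libraries also differed among themselves in ways that several members shared in part. Slc7a13, an amino acid transporter of the straight part of the proximal tubule, ran from 155 to 2262 CPM in HET libraries and from 40.5 to 2949 CPM in WT libraries, lowest in HET replicate 5 and WT replicate 2 and highest in HET replicate 4 and WT replicate 3. Prdx1 was highest in those same libraries, at 714 CPM in HET replicate 4 and 747 CPM in WT replicate 3, and lowest in HET replicate 5 (607 CPM) and WT replicate 2 (565 CPM). Gpx4 was lowest in HET replicate 5 (277 CPM) and WT replicate 2 (279 CPM), and highest in HET replicate 4 (412 CPM) but in WT replicate 4 (372 CPM), not WT replicate 3 (359 CPM). Cat was highest in HET replicate 4 (1661 CPM) and WT replicate 3 (1684 CPM), and lowest in HET replicate 5 (1263 CPM) but in WT replicate 1 (863 CPM), not WT replicate 2 (1431 CPM). Gpx3 ran the other way, lowest in HET replicate 4 (27388 CPM) and WT replicate 3 (24109 CPM) and highest in HET replicate 2 (34301 CPM) and WT replicate 2 (35994 CPM). Gpx1 too was lowest in HET replicate 4 (866 CPM) and WT replicate 3 (716 CPM), and highest in HET replicate 2 (1012 CPM) and WT replicate 4 (854 CPM). Sod1 had its extremes in the libraries of Gpx4: HET replicates 5 (1037 CPM) and 4 (1232 CPM), and WT replicates 2 (1005 CPM) and 4 (1185 CPM). Prdx5 had them in those of Cat: HET replicates 5 (299 CPM) and 4 (336 CPM), and WT replicates 1 (303 CPM) and 3 (349 CPM). WT replicate 2 was almost as low for Prdx5 (304 CPM). Sod2, Sod3 and Prdx3 followed other orders in at least 1 of the groups. In HOMO libraries Slc7a13 was at 0.474 to 22.6 CPM. The part of tubule segments in these differences was not tested.

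Promoters are shown for Gpx3, Cat and Sod1, which fell furthest on the TMM scale, and for Sod2 and Prdx1, the members that hold the core of the antioxidant response element. Each run is the 250 bases before the start site from RefSeq, build GRCr8, read 5′ to 3′ on the gene's strand: chr10:39529085-39529334 (plus) for Gpx3, chr3:110329527-110329776 (minus) for Cat, chr11:42942573-42942822 (plus) for Sod1, chr1:50050169-50050418 (minus) for Sod2 and chr5:135383656-135383905 (plus) for Prdx1. Capitals mark matches, on either strand, to the motifs TGACNNNGC, the core of the antioxidant response element, GGGCGG, the GC box, CCAAT, the CCAAT box, and TATAAA, the TATA box. A direct repeat read by nuclear receptors and the NF-kB consensus were searched as well.
Gpx3: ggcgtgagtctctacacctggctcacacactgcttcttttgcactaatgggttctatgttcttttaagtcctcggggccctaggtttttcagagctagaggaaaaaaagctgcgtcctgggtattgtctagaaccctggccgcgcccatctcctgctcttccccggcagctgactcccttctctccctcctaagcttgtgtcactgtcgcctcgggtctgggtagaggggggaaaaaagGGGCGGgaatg
Cat: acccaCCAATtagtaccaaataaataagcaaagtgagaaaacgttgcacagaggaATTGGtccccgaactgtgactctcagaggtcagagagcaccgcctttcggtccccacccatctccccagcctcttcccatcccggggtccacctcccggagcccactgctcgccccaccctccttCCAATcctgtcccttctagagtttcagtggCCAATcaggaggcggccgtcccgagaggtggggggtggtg
Sod1: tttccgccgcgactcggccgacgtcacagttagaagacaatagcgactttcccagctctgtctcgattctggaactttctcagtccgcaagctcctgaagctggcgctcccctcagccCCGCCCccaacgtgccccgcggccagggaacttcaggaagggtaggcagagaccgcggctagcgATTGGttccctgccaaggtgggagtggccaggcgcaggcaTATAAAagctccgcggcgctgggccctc
Sod2: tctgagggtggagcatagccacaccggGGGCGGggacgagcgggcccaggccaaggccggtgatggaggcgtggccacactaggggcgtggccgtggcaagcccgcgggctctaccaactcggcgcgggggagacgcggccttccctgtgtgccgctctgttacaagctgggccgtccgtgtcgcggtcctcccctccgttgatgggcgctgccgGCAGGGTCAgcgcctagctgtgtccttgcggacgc
Prdx1: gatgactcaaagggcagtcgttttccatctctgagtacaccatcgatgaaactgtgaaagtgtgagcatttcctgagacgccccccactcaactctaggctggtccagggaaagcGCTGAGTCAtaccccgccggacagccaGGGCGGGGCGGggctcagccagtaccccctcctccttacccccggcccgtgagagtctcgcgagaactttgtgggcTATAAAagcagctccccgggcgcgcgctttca

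Promoters were matched for 9 of the 10 genes, all but Sod3, and for Gpx4 the first of 3 listed start sites was used. The antioxidant response element core was found in 2 of the 9, in Sod2 at 35 bases and in Prdx1 at 135 bases before the start site, both on the opposite strand, and in 10.2% of 27457 promoters of the same length. The GC box was in 8 of the 9, in all but Cat, and in 32.4% of all promoters. In Prdx1 it occurred in 2 copies that share a base. The CCAAT box was in Sod1, Cat and Gpx4, where Cat had 4 copies, and in 34.3% of all promoters. The TATA box was in Sod1 and Prdx1, at 28 and 32 bases before the start, and in 13.1% of all. The direct repeat and the NF-kB consensus were in 0 of the 9, and in 0.0546% and 0.0765% of all promoters. These are matches of letters in a short window, and no binding was measured.

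The other members of the same enzyme families did not all move with the 10. Of 8 listed, 4 rose in HOMO against WT, Prdx6 fell, Prdx2 did not pass the test, and Gpx5 and Gpx6 had 0 counts in every library. Gpx2, a glutathione peroxidase best known from the gut lining, was at 67.0, 71.9, 81.1 and 84.8 CPM in HOMO replicates 1 to 4, against 5.24, 5.54, 5.78 and 8.53 CPM in WT replicates 1 to 4. Its log2 fold change was 3.60 ± 0.15 (adjusted p = 6.01e-10). The forms that work in the endoplasmic reticulum also rose: Gpx7 by 1.89 ± 0.20 (adjusted p = 1.88e-06), Gpx8 by 1.89 ± 0.12 (adjusted p = 1.58e-08) and Prdx4 by 1.42 ± 0.10 (adjusted p = 3.8e-08), on the log2 scale. Prdx6, which also cuts phospholipids, had 133 to 168 CPM in HOMO libraries and 310 to 359 CPM in WT libraries, a log2 fold change of -1.12 ± 0.10 (adjusted p = 4.32e-07). Prdx2, abundant in red cells, averaged 208 ± 22.3 CPM in HOMO and 189 ± 15.6 CPM in WT (log2 fold change 0.14 ± 0.09, adjusted p = 0.148). It was called higher without the library labelled HOMO replicate 3 (0.21, adjusted p = 0.023) and with library size alone (0.76, adjusted p = 1.12e-06). The 4 rises and the fall of Prdx6 kept their calls under both of these settings.

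**Figure D5:**
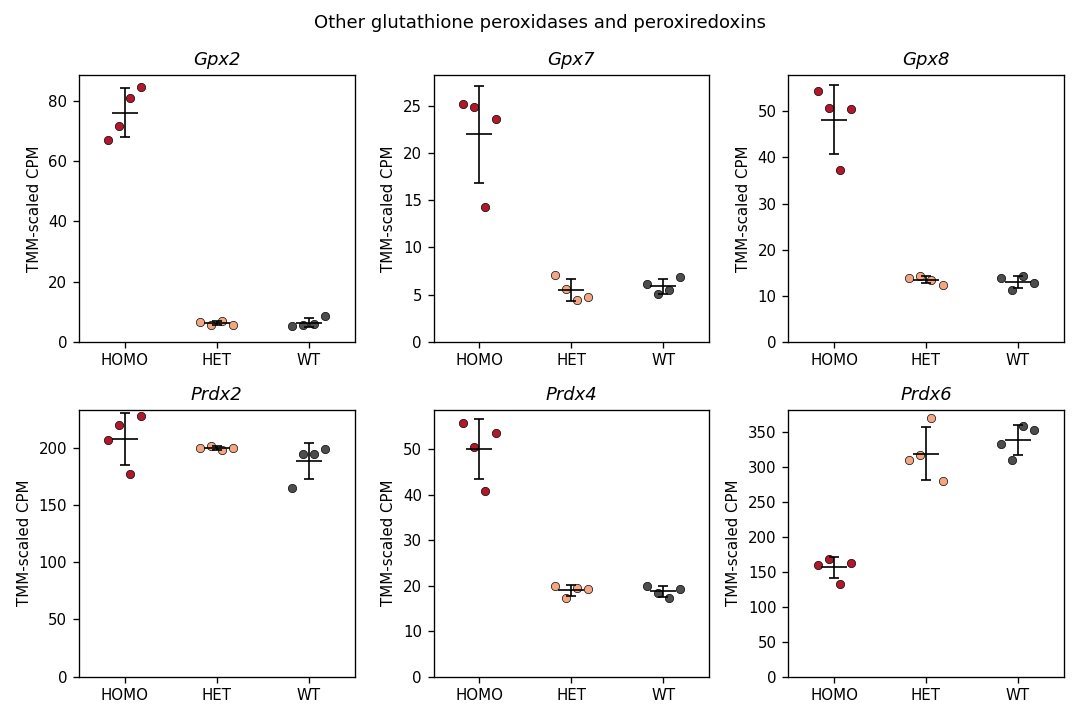
TMM-scaled CPM (y axis, starting at 0) of 6 glutathione peroxidases and peroxiredoxins outside the 10, by genotype, 1 point per library with mean and SD. HOMO points of Gpx2, Gpx7, Gpx8 and Prdx4 lie above all WT points, those of Prdx6 lie below, and those of Prdx2 overlap WT (177 to 228 against 165 to 199 CPM).

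The heme peroxidases, secreted or stored in granules, were listed as another group. Peroxidasin (Pxdn), which crosslinks collagen in basement membranes, rose to 229 to 363 CPM in HOMO libraries, against 18.8 to 34.7 CPM in WT libraries (log2 fold change 3.37 ± 0.23, adjusted p = 8.5e-08). Lactoperoxidase (Lpo) rose at a very low level, with 0.961 to 4.52 CPM in HOMO libraries and 0.0315 to 0.189 CPM in WT libraries (4.55 ± 0.65, adjusted p = 3.35e-05). Mpo and Epx, the granule enzymes of neutrophils and eosinophils, did not pass the filter on low counts. Epx had 8, 8, 0 and 0 counts in HOMO replicates 1 to 4 and 0 in all WT libraries.

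The genes that keep these enzymes supplied were mostly lower too. Of 21 tested genes of glutathione and thioredoxin supply, 17 fell, 3 rose and 1 did not pass the test, with a median log2 fold change of -0.91, and with library size alone 12 fell, 4 rose and 5 did not pass. Nnt, which makes mitochondrial NADPH, was at -1.89 ± 0.08, and the isocitrate dehydrogenases Idh1 and Idh2, other sources of NADPH, at -1.86 ± 0.11 and -1.72 ± 0.10. Txnip, which binds and blocks thioredoxin, was the largest rise, with 708 to 1370 CPM in HOMO libraries and 315 to 386 CPM in WT libraries (1.60 ± 0.24, adjusted p = 6.79e-05). Selenoprotein synthesis, on which Gpx1, Gpx3 and Gpx4 depend, fell in 10 of 10 tested genes with a median of -1.74, while with library size alone 7 fell and Secisbp2 and Pstk rose. Pstk, at -0.28 (adjusted p = 0.0431) on the TMM scale, was not called without HOMO replicate 1, 2 or 4, HET replicate 2, or WT replicate 1, 3 or 4. Sepsecs, which forms selenocysteine on its transfer RNA, was at 19.6 to 22.6 CPM in HOMO libraries and 78.2 to 89.5 CPM in WT libraries (adjusted p = 9.71e-11). Sephs2, which makes the selenium donor, was at -2.08 ± 0.09, and Scly, which frees selenium from selenocysteine, at -2.71 ± 0.12. The list shares Lrp2, the uptake receptor megalin, with the proximal tubule markers.

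Of 21 tested genes listed as possible sources of superoxide or hydrogen peroxide, 16 fell and 3 rose, with a median of -1.77 (12 falls and 6 rises with library size alone). The oxidase of D-amino acids Dao had 57.7 to 94.8 CPM in HOMO libraries and 1424 to 1659 CPM in WT libraries (-4.24 ± 0.15, adjusted p = 1.87e-10). Sardh, the mitochondrial sarcosine dehydrogenase, which is on this list but is not an oxidase, was at -2.11 ± 0.09. Duox1, a dual oxidase, went the other way at a level of 0.26 to 1.45 CPM in HOMO libraries and 0.0378 to 0.157 CPM in WT libraries (2.74 ± 0.62, adjusted p = 0.00136). Of 21 genes of peroxisome biogenesis and transport, 17 fell and 2 rose, with a median of -1.12 (12 falls and 6 rises with library size alone), less than the -3.06 of Cat. Pex13 and Pex7, parts of the import machinery, were at -1.39 ± 0.08 and -1.36 ± 0.08, and the fatty acid carrier Abcd3 at -1.86 ± 0.12. Abcd2, a related carrier, was called higher (3.99 ± 1.34, adjusted p = 0.0208) with 25.7 CPM in HOMO replicate 1 and 1.56 to 1.82 CPM in the other HOMO libraries, and it was not called without HOMO replicate 1 (1.81, adjusted p = 0.107), WT replicate 1 (3.92, adjusted p = 0.0537) or WT replicate 4 (3.81, adjusted p = 0.0543). In mitochondria, 13 of 13 tested citric acid cycle genes fell with a median of -1.72 (12 with library size alone), among them Fh (-1.84 ± 0.08), Dlst (-1.90 ± 0.09) and Sdha (-1.90 ± 0.10). Sod2, at -0.34, lay above the whole of this list, whose highest member was Cs at -0.65.

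Markers of the cells in the cortex moved with the same groups, and their part in the members' results was not tested. The share of counts from genes of the mitochondrial genome moved with the groups as well, at 5.97 to 6.75% in HOMO libraries, 12.9 to 18.6% in HET libraries and 14.4 to 17.0% in WT libraries, and its part was not tested either. All 12 proximal tubule markers fell, with a median of -3.74 and summed levels of 1961 to 2231 CPM in HOMO libraries, against 25998 to 31127 CPM in WT libraries. Slc34a1, the phosphate transporter, was at -4.26 ± 0.11, the inositol oxygenase Miox at -4.93 ± 0.15 and the dicarboxylate transporter Slc13a3 at -3.35 ± 0.13. Of 6 thick ascending limb markers 5 fell (Egf, Cldn10, Kcnj1, Umod and Cldn16, from -7.06 to -0.61) and Slc12a1 did not pass the test (-0.74, adjusted p = 0.145). Cldn16 was not called with library size alone, nor without the library labelled HOMO replicate 3, HOMO replicate 4, WT replicate 3 or WT replicate 4 (adjusted p from 0.0523 to 0.0773), and Slc12a1 was called lower without WT replicate 2 (-1.01, adjusted p = 0.0322). All 9 matched macrophage markers rose, with sums of 1997 to 2938 CPM in HOMO libraries and 242 to 376 CPM in WT libraries, among them Lyz2 (2.99 ± 0.16), Mrc1 (4.65 ± 0.23) and C1qa (2.95 ± 0.16).

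Of 8 tested neutrophil markers 7 rose (8 with library size alone), among them S100a8 (6.17 ± 0.40), S100a9 (6.25 ± 0.43) and Csf3r (4.45 ± 0.37), with sums of 136 to 276 CPM in HOMO libraries and 7.11 to 22.5 CPM in WT libraries. The neutrophil genes Elane and Ngp had too few counts to test, with Elane at 57 counts over HOMO libraries and 0 over WT libraries. Fibroblast markers summed to 3484 to 6692 CPM in HOMO libraries and 669 to 1003 CPM in WT libraries. Dcn (2.75), Lum (4.51), Col3a1 (3.21), Pdgfra (0.98), Col1a1 (3.20) and Pdgfrb (1.40) rose, and Dpt fell (-0.65, but not called with library size alone, at -0.03, nor without the library labelled HOMO replicate 3, HOMO replicate 4, WT replicate 1 or WT replicate 2). Smooth muscle markers summed to 306 to 775 CPM in HOMO libraries and 124 to 190 CPM in WT libraries, with rises of Tagln (2.68), Des (1.93), Acta2 (2.45), Cnn1 (2.09), Actg2 (3.81), Myh11 (1.13) and Lmod1 (1.34), and Smtn at -0.32 (adjusted p = 0.0688). Myh11 was not called without HOMO replicate 1 (0.82, adjusted p = 0.0534) or WT replicate 3 (0.98, adjusted p = 0.0504), nor Lmod1 without HOMO replicate 1 (adjusted p = 0.0671) or WT replicate 2 (adjusted p = 0.0516), and Smtn was called lower without WT replicate 3 (-0.44, adjusted p = 0.0105). Red cell genes summed to 30.3 to 425 CPM in HOMO libraries and 82.7 to 1154 CPM in WT libraries, overlapping widely, with Slc25a37 (-0.88) and Epb42 (-1.28) called lower on the TMM scale, neither of them with library size alone, and the other 4, Alas2, Ahsp and a pair of globin genes, not called. For HET against WT, 0 genes of these lists were called.

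Genes with the profile most like each member across the 12 libraries were found by the root mean square difference of log2 CPM from the WT mean, among 11913 genes. A like size of change in HOMO libraries weighs heavily in this measure, and shared regulation or location was not tested. Gpx3 lay nearest to Slc13a3 (0.161), also in the proximal tubule list, and glycerol kinase Gk (0.169), and Cat nearest to Cdhr2 (0.207), a brush border cadherin, and Ehhadh (0.213), a peroxisomal enzyme of fatty acid oxidation. Sod1 lay nearest to Gsta4 (0.0785) and Rbpms2 (0.0888), and Sod3 to Cyb5b (0.129) and Trim14 (0.143). The mitochondrial Prdx3 lay nearest to the respiratory chain subunits Sdhb (0.0839) and Uqcr11 (0.0858), and Gpx1 to Park7 (0.116) and Ndufb4 (0.121). For Sod2 the nearest were Atraid (0.104) and Urod (0.113), for Gpx4 Cdc34 (0.0759) and Ppp5c (0.0839), for Prdx1 Vti1b (0.0765) and Med28 (0.0841), and for Prdx5 Vamp8 (0.097) and Tmem38a (0.1).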

How the data were processed

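The authors deposited raw counts per gene and RPKM values for 32623 genes, and tables of their own comparisons, which hold log2 ratios with a p-value and a false discovery rate for each gene. RPKM values matched count, length and library total with a median deviation of 0.0416% and served only for that check. The submitters' processing notes name build Rnor_6.0 and edgeR 3.8.6. Aligner, counter, annotation and treatment of strand and shared reads: not given in the sources used here. Per the labels' protocols, flash-frozen cortex was extracted with Trizol and sequenced from TruSeq stranded mRNA libraries. Groups and replicate numbers came from the titles.

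Genes were filtered with filterByExpr (minimum count 10, minimum total 15), which left 15856 of 22687 genes with a count, and fitted in 1 model with TMM factors and a term per genotype in edgeR 4.0.16 (R 4.3.3), robust quasi-likelihood, Benjamini-Hochberg over all tested genes, level 0.05. The script was tested on simulated data in which few genes changed, as many up as down, so that test does not bear on the TMM correction. Intervals are 95% from the SE with 9 degrees of freedom. Alternatives used DESeq2 1.42.0 and limma 3.58.1 among others. The members and lists were chosen with earlier results of these data known. All members are named; longer lists are named by the 3 smallest p-values and the largest call against the majority. Fat cell markers, Slc7a13, Cs, Secisbp2, Pstk and the glutathione synthesis genes were named after their values were seen. Symbols Srxn1, Pgd, Pxdnl, Pex19, Ogdh, Itgam and Col1a2 were not matched and are not analysed here. Some genes that this naming rule would take are not reported here.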

Additional observations from a re-analysis of the deposited data

Results flagged for a closer look

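Among 33 groups of 4 libraries (the 10 genes and Xdh in each genotype), 5 held a library whose gap to its nearest neighbour was too large a part of the group's range by Dixon's test at the 95% level. Chance alone flags about 5% of groups. Sod1 was at 267 CPM in HOMO replicate 1, against 237 to 241 CPM in the other HOMO libraries. Gpx3 was at 3842 CPM in the library labelled HOMO replicate 3, against 2575 to 2687 CPM in the others. Xdh was at 230 CPM in the same library, against 57.6 to 61.7 CPM in the others. Prdx1 was at 714 CPM in HET replicate 4, against 607 to 619 CPM in the other HET libraries. Prdx5 was at 299 CPM in HET replicate 5, against 332 to 336 CPM in the others.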

How the results depend on the processing

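With library size alone, 6 of the 10 genes were called lower and 1 higher for HOMO against WT (Sod2 at 0.27), and 6 lower and 1 higher for HOMO against HET (Sod2 at 0.30), while 80.1% and 80.5% of all called genes were higher, against 51.6% and 51.2% with TMM. Against a fold of 1.5 (glmTreat), 6606 genes were called for HOMO against WT, of the members all but Sod2, Gpx4 and Prdx5, and 6520 for HOMO against HET with 6 members lower. At a level of 0.01 Sod2 lost its call in both. Leaving out each library in turn gave 10926 to 11583 called genes and 10 members lower for HOMO against WT, and 10743 to 11417 genes and 9 to 10 members lower for HOMO against HET. RLE factors, both other filters, DESeq2, limma voom and the fit of only 8 libraries kept all 10 members lower in both comparisons. HET against WT gave 0 calls under every setting, and the signs of values near 0 varied when a library was left out: -0.05 to 0.009 for Sod2, -0.05 to 0.17 for Sod3, -0.08 to 0.21 for Cat, -0.07 to 0.11 for Gpx4, -0.08 to 0.06 for Prdx1 and -0.01 to 0.06 for Prdx5.

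The labels do not say that replicate numbers pair the libraries. Deviations of same-numbered libraries from their group means correlated across genes at -0.22 to 0.09 for HOMO and WT, 0.08 to 0.24 for HET and WT, and -0.10, -0.17 and, for replicate 1, 0.48 for HOMO and HET, so not every pair was above 0.1. HOMO and HET replicate 1 are also the libraries with most fat marker RNA. With the replicate number as a block, 11265 genes were called for HOMO against WT and 10805 for HOMO against HET, with 10 members lower in both, and 0 for HET against WT, where Sod2 moved to 0.05 and Prdx1 to 0.0098. The number of 4 libraries a group limits what HET against WT could resolve.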

Other observations

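The genes of glutathione synthesis varied more among HET and WT libraries than any of the 10 genes. Gclc, the catalytic subunit of the limiting enzyme, was at 46.3 to 106 CPM in HOMO libraries, 559 to 4912 CPM in HET libraries and 287 to 5451 CPM in WT libraries. It was lowest in HET replicate 5 and WT replicate 2 and highest in HET replicate 4 and WT replicate 3, the same libraries as for Slc7a13. Its log2 fold change for HOMO against WT was -5.40 ± 0.98 (adjusted p = 0.000564 by edgeR), with a standard error larger than that of any of the 10 genes. Gclm, the regulatory subunit, was at 115 to 198 CPM in HOMO libraries and 171 to 1157 CPM in WT libraries, which overlapped (-2.21 ± 0.61, adjusted p = 0.00733). Gss, the second enzyme of the pathway, was at -2.62 ± 0.40 (adjusted p = 0.000115).

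Mpo, the peroxidase of neutrophil granules, had 1695, 26, 0 and 0 counts in HOMO replicates 1 to 4, 317, 0, 0 and 0 counts in HET replicates 1, 2, 4 and 5, and 0 in all WT libraries. The 2 libraries with most Mpo were those with most RNA of the 4 fat cell markers. Elane, which neutrophil precursors also make, was at 13, 8, 15 and 21 counts in HOMO replicates 1 to 4 and at 0 in all HET and WT libraries.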
